A study of Mus musculus with 16 samples.

Results

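Markers of olfactory ensheathing glia, 6 of the 19505 genes named on the array, were followed through sorted cells of the mouse olfactory mucosa. They are Sox10, Erbb3, Fabp7, S100b, Npy and Frzb, taken by symbol from a given list of marker genes, and all 6 had a named probe set. Ensheathing glia are neural crest-derived cells that wrap bundles of olfactory axons on their way from the nasal epithelium to the bulb. They lie in the lamina propria under the epithelium and along the olfactory nerve, and resemble Schwann cells that make no myelin. Sox10 and the neuregulin receptor ErbB3 set up and maintain this lineage, whereas S100b, Fabp7, Npy and Frzb are products of the differentiated cells.

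The mice carried S100a5-tauGFP, in which green fluorescent protein (GFP) reports S100a5, a gene of active olfactory sensory neurons. The 24 mice, of both sexes and 7 to 12 weeks old, were held singly for 40 hours in clean air flowing at 3.1 L/min. Pulses of 10 seconds, 20 min apart and beginning at hour 26, brought indole/ionone to the odor arm and filtered air to the vehicle arm. Dissociated mucosa was sorted in pools of 3 mice, and each of the 8 pools gave a GFP+ and a GFP- sample, so that the 4 groups of odor GFP+, odor GFP-, vehicle GFP+ and vehicle GFP- held 4 samples each. The gate was set on the neuronal reporter, and no sample was sorted for a glial marker. All 16 samples were hybridised to Clariom S arrays, and the number of arrays limits the precision. All levels are the deposited values, taken as log2, and a difference of 1 is a 2-fold change. Within a group, arrays correlated at 0.984 to 0.994 over all genes, the GFP- sample of odor replicate 3 having the lowest mean correlation with its group (0.985). The reporter's gene S100a5 exceeded its GFP- level by 1.31 ± 0.17 in GFP+ cells of odor pools and 1.27 ± 0.17 in those of vehicle pools (SE, limma, adjusted p = 0.000184 and 0.000228). Omp, a protein of mature olfactory sensory neurons, lay between 18.11 and 18.51 in all 16 samples.

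Sox10 and Erbb3, the regulators of the lineage, were lower in GFP+ than in GFP- cells. Over the 8 pools Sox10 differed by -0.89 ± 0.14 on the log2 scale and Erbb3 by -0.80 ± 0.21 (SE, limma, adjusted p = 0.000465 and 0.0143); among all genes 13.9% were lower in that comparison. The other 4 genes did not pass, and none of the 6 passed between odor and vehicle. Only Fabp7 lay above the median of the background probes in every sample. In bulk samples of this kind, fewer cells of a type and less RNA per cell cannot be told apart.

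The levels of most of these genes were low. The array carries background probes that match no mouse sequence, in 23 classes by the number of G or C bases among their 25. The median over all classes was 5.63 to 6.05 per array, but the classes were far from alike. Classes with 10 to 16 G or C bases had means of 2.38 to 3.20, while those with 7 or fewer, or 19 or more, had means of 5.85 to 7.48. Fabp7 exceeded the median over all classes on 16 of 16 arrays and the highest class on 6 of them. Sox10, Erbb3, S100b, Npy and Frzb lay below that median on 16 of 16 arrays each. Set against the median of the classes with 10 to 16 G or C bases, at 2.46 to 2.65, all 6 genes were above it on all 16 arrays. That lower reference was passed on all arrays of a group by 98.7% to 99.2% of all genes, and the higher one by 52.4% to 55.2%. The base composition of the genes' own probes was not used here, so these values do not settle whether the 5 dim genes were detected.

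**Figure D1:**
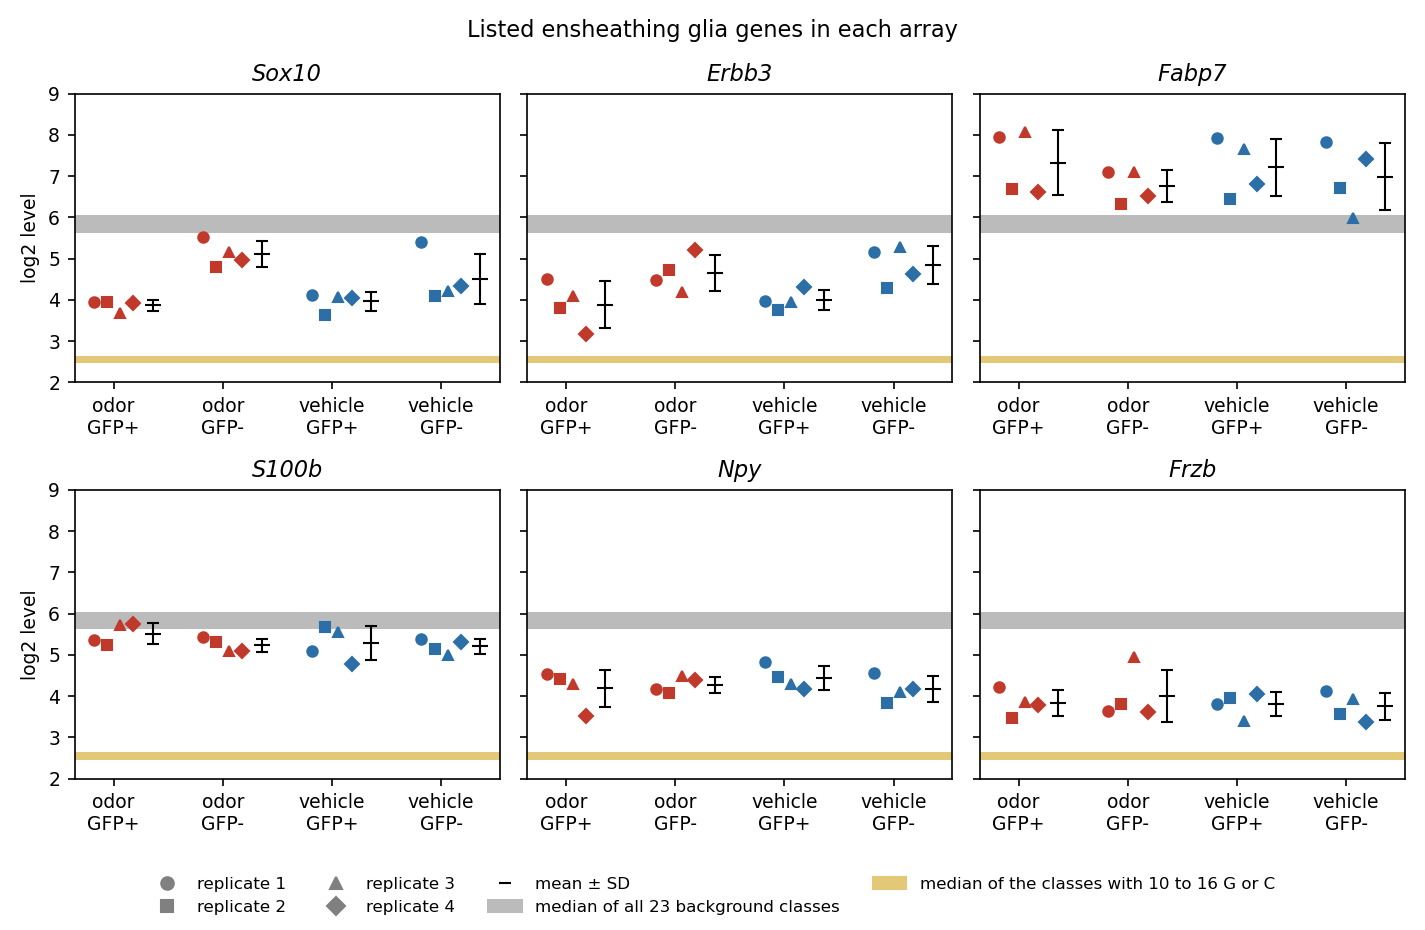
Log2 level of each gene in each of the 16 samples, by group (x axis), with the mean ± SD of the 4 pools beside the points and the range over arrays of 2 background references as bands. Sox10 of odor pools was lower in all 4 GFP+ samples (3.68 to 3.95) than in all 4 GFP- samples (4.79 to 5.53), and Fabp7 was the gene above the upper band on nearly all arrays, its lowest value being 5.98. The share of all genes with such a gap between fractions was not counted.

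**Figure D2:**
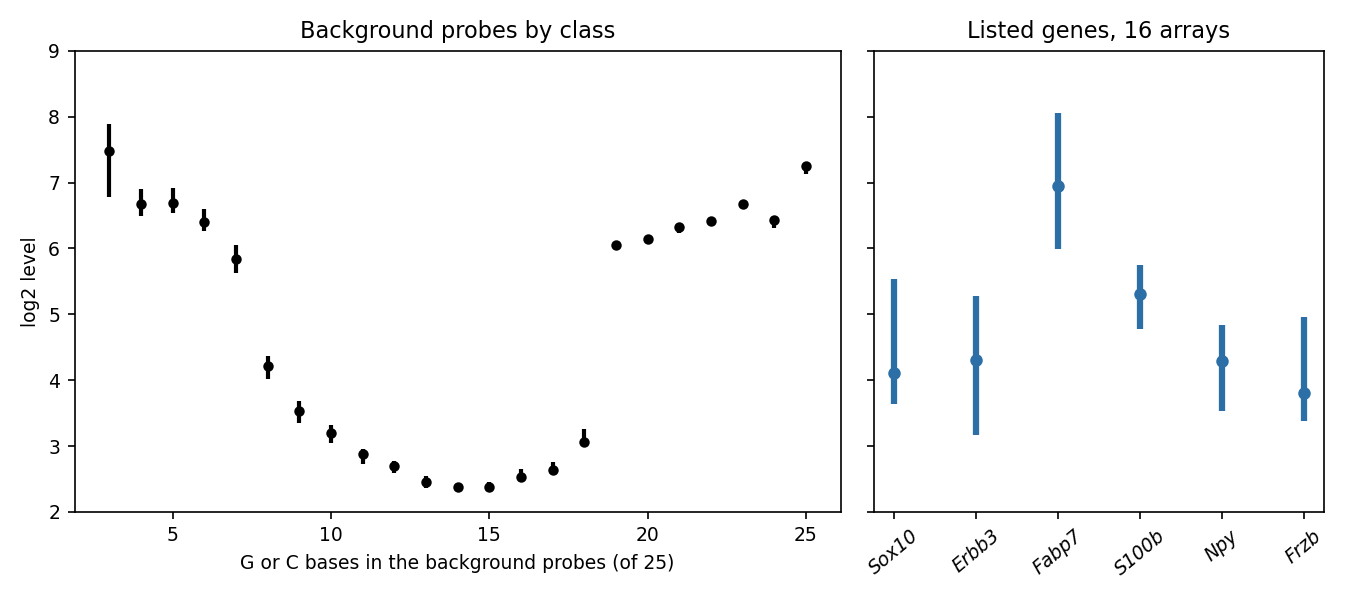
Left, mean (points) and range (lines) over 16 arrays of the log2 level of each background class, by the number of G or C bases in its 25-base probes; right, median and range of the listed genes over the same arrays. Classes from 8 to 18 G or C bases were dim, with means up to 4.21, and the outer classes were bright, with means of at least 5.85.

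Sox10 is a transcription factor of the neural crest that specifies peripheral glia and stays on in ensheathing cells. In odor pools its levels in replicates 1 to 4 were 3.95, 3.95, 3.68 and 3.91 in GFP+ cells and 5.53, 4.79, 5.17 and 4.97 in GFP- cells. In vehicle pools they were 4.13, 3.63, 4.06 and 4.06 in GFP+ cells and 5.40, 4.09, 4.22 and 4.33 in GFP- cells. The fractions did not overlap in odor pools, but they did in vehicle pools, where the GFP- sample of replicate 1 stood above the other 3. The share of all genes whose fractions did not overlap was not counted. Within pools, Sox10 was lower in the GFP+ sample in 8 of 8. The differences were -1.58, -0.83, -1.49 and -1.06 in odor pools and -1.27, -0.46, -0.16 and -0.27 in vehicle pools. Their mean was -1.24 ± 0.20 in odor pools (SE, 95% interval -1.67 to -0.81, limma, adjusted p = 0.000777). In vehicle pools it was -0.54 ± 0.20 and did not pass (interval -0.97 to -0.11, adjusted p = 0.08). Without vehicle replicate 1 the vehicle mean was -0.30 and adjusted p = 0.334. With the replicate number as a block, vehicle pools passed as well (adjusted p = 0.0446). The call over all 8 pools held without any 1 pool, at -0.96 to -0.77.

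Erbb3 encodes the receptor through which axonal neuregulin keeps Schwann cells and ensheathing glia alive; it is also made by epithelial cells. Its levels in odor replicates 1 to 4 were 4.50, 3.80, 4.09 and 3.17 in GFP+ cells and 4.47, 4.73, 4.19 and 5.20 in GFP- cells. In vehicle replicates they were 3.97, 3.75, 3.96 and 4.31 in GFP+ cells and 5.16, 4.29, 5.27 and 4.62 in GFP- cells. The fractions overlapped in both arms, in vehicle pools by no more than the highest GFP+ sample against the lowest GFP- sample. Within pools, Erbb3 was lower in the GFP+ sample in 7 of 8. The within-pool differences were 0.02, -0.93, -0.10 and -2.04 in odor pools and -1.18, -0.55, -1.31 and -0.31 in vehicle pools. Neither arm passed alone, at -0.76 ± 0.30 in odor pools (SE, adjusted p = 0.106) and -0.84 ± 0.30 in vehicle pools (adjusted p = 0.0763). The mean over the 8 pools passed (95% interval -1.27 to -0.33). Odor replicate 4 alone held much of the odor difference, which was -0.34 without that pool, and the 8-pool value was then -0.59 with adjusted p = 0.0233. The 8-pool call ended with each array centred on its median, at -0.46 (adjusted p = 0.0599), and in a fit without moderated variances (adjusted p = 0.0729).

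Fabp7, the brain fatty acid-binding protein, carries lipids in radial glia, astrocytes and ensheathing cells. Its levels in odor replicates 1 to 4 were 7.95, 6.68, 8.06 and 6.60 in GFP+ cells and 7.10, 6.33, 7.09 and 6.53 in GFP- cells. In vehicle replicates they were 7.92, 6.45, 7.66 and 6.82 in GFP+ cells and 7.82, 6.70, 5.98 and 7.41 in GFP- cells. All fractions and arms overlapped, and in both arms the GFP+ samples of replicates 1 and 3 were the high ones. The within-pool differences were 0.86, 0.35, 0.97 and 0.08 in odor pools and 0.09, -0.25, 1.67 and -0.60 in vehicle pools. The 4 odor pools were thus all above 0 and the vehicle pools mixed, with vehicle replicate 3 as the largest of the 8. The mean of odor pools, 0.56 ± 0.31 (SE, adjusted p = 0.236), that of vehicle pools, 0.23 ± 0.31 (adjusted p = 0.654), and that of all 8, 0.40 ± 0.22 (95% interval -0.08 to 0.87, adjusted p = 0.183), did not pass. Quantile normalization gave 0.67 over 8 pools and a call (adjusted p = 0.0244).

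S100b, a calcium-binding protein of glial cytoplasm that is widely used to stain ensheathing cells, gave no call in any comparison on the deposited scale. Odor replicates 1 to 4 had 5.35, 5.25, 5.73 and 5.74 in GFP+ cells and 5.42, 5.30, 5.11 and 5.10 in GFP- cells. Vehicle replicates had 5.10, 5.67, 5.56 and 4.78 in GFP+ cells and 5.38, 5.14, 4.99 and 5.32 in GFP- cells. The 4 groups overlapped throughout, and group means were 5.52 ± 0.25, 5.23 ± 0.16, 5.28 ± 0.41 and 5.21 ± 0.18 (SD, n = 4 each) in the order odor GFP+, odor GFP-, vehicle GFP+ and vehicle GFP-. The GFP+ sample was lower in 4 of 8 pools. Over 8 pools the difference was 0.18 ± 0.15 (SE, 95% interval -0.16 to 0.51, adjusted p = 0.392). S100b was called higher over 8 pools after quantile normalization (0.44, adjusted p = 0.0477) and after median centring (0.52, adjusted p = 0.00725), and in odor pools after median centring (0.62, adjusted p = 0.0235).

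Npy, the precursor of neuropeptide Y, is made by ensheathing cells and, in the epithelium, by microvillar cells. In odor replicates 1 to 4 it lay at 4.53, 4.42, 4.29 and 3.53 in GFP+ cells and at 4.17, 4.07, 4.49 and 4.39 in GFP- cells. In vehicle replicates it lay at 4.83, 4.46, 4.30 and 4.18 in GFP+ cells and at 4.57, 3.82, 4.11 and 4.18 in GFP- cells. The groups overlapped, with the GFP+ sample of odor replicate 4 below all other 15 samples. The difference was -0.09 ± 0.20 in odor pools (SE, adjusted p = 0.804), 0.27 ± 0.20 in vehicle pools (adjusted p = 0.389) and 0.09 ± 0.14 over all 8 (95% interval -0.22 to 0.40, adjusted p = 0.647).

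Frzb, a secreted frizzled-related protein that binds Wnt ligands and keeps them from their receptors, gave no call either. Odor replicates 1 to 4 had 4.23, 3.47, 3.85 and 3.78 in GFP+ cells and 3.64, 3.81, 4.95 and 3.63 in GFP- cells. Vehicle replicates had 3.81, 3.95, 3.39 and 4.06 in GFP+ cells and 4.12, 3.57, 3.93 and 3.38 in GFP- cells. All groups overlapped, and the GFP- sample of odor replicate 3, which stood apart from its group across all genes, was the highest of the 16. The difference was -0.17 ± 0.27 in odor pools (SE, adjusted p = 0.696), 0.05 ± 0.27 in vehicle pools (adjusted p = 0.918) and -0.06 ± 0.19 over all 8 (95% interval -0.48 to 0.35, unadjusted p = 0.751). Without odor replicate 3 the 8-pool value was 0.09.

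**Figure D3:**
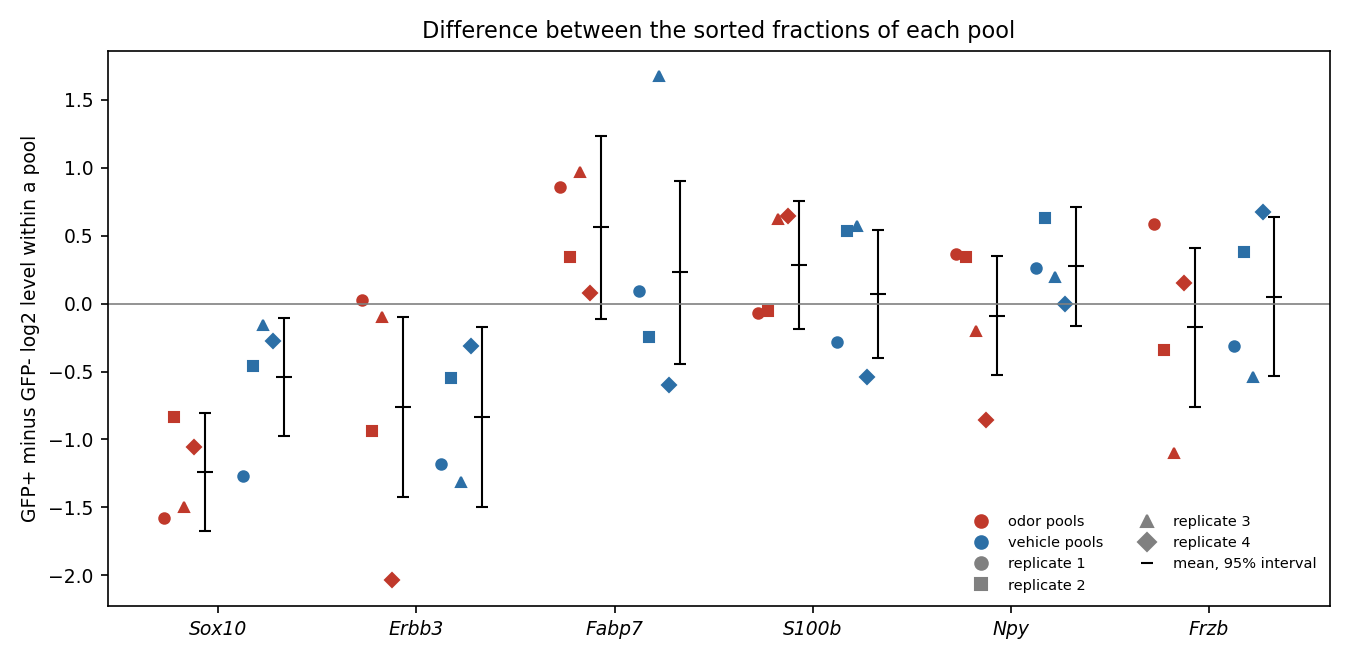
Difference in log2 level between the GFP+ and the GFP- sample of each pool (points), with the mean of the 4 pools of an arm and its 95% interval from limma. Sox10 lay below 0 in all 8 pools and Erbb3 in 7 of 8, whereas the points of the other 4 genes fell on both sides of 0 and the arms overlapped for each gene.

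Across the 6 genes, limma called 1 lower and 0 higher in odor pools, where 10.6% of all genes were lower and 7.96% higher. It called 0 in vehicle pools, where 10.8% of all genes were lower and 8.86% higher; 2 of the 6 had an unadjusted p under 0.05 there, and a fit without moderated variances also called 0. Over 8 pools it called 2 lower and 0 higher, against 13.9% lower and 18.3% higher among all genes. The median difference of the 6 was -0.13, 0.06 and 0.02 in the 3 comparisons, and that of all genes 0.11, 0.11 and 0.12. So 2 of the 6 were lower in GFP+ cells and 4 gave no call. Centring each array on its median moved the median of all genes to 0.46, 0.45 and 0.46, and the share of called genes that were higher over 8 pools from 56.8% to 88.0% (64.9% with quantile normalization). Relative to that shift S100b (0.52) and Npy (0.44) sat beside the median of all genes over 8 pools and Fabp7 (0.74) above it. All 3 were called higher on that scale, as were 14219 of all 19505 genes. Sox10 stayed lower over 8 pools on both other scales, at -0.55 after centring (adjusted p = 0.00451) and -0.83 after quantile normalization (adjusted p = 0.000397).

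The design asks what odor exposure changed, and for the 6 genes no difference between the arms passed. The enrichment of odor pools minus that of vehicle pools was -0.70 ± 0.28 for Sox10 (SE, 95% interval -1.31 to -0.09, unadjusted p = 0.0287, limma, adjusted p = 1), so its call in odor pools and not in vehicle pools is not shown to differ between the arms. The other 5 genes ran from -0.36 ± 0.28 for Npy to 0.33 ± 0.43 for Fabp7, each with adjusted p = 1. Of all genes 0% were called in this comparison, with 654 at an unadjusted p under 0.05, and the fit without moderated variances called 0 as well. In GFP+ cells alone the differences ran from -0.25 ± 0.23 for Npy to 0.24 ± 0.21 for S100b, with adjusted p of 0.967 to 0.998, 0 of 6 under an unadjusted 0.05 and again 0% of all genes called (1070 under an unadjusted 0.05, and 0 called without moderated variances). In GFP- cells Sox10 was 0.60 ± 0.29 higher after odor and did not pass (interval -0.03 to 1.23, unadjusted p = 0.0586, adjusted p = 1). There 3 of 4 vehicle samples were below all 4 odor samples, and without vehicle replicate 1 the difference was 0.90. The other 5 genes ran from -0.22 ± 0.36 for Fabp7 to 0.26 ± 0.30 for Frzb. In this comparison 0.00513% of all genes, the odorant receptor gene Olfr76, passed, and 0 did without moderated variances.

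The wider set of ensheathing and Schwann glia genes held 15 measured genes. Over 8 pools 1 was higher in GFP+ cells, 1 lower and 13 gave no call, with a median difference of 0.16 against 0.12 for all genes. Of all genes, 18.3% were higher and 13.9% lower in that comparison. Cnp, an enzyme of myelinating and other glia, had levels in odor replicates 1 to 4 of 4.12, 3.79, 4.55 and 4.04 in GFP+ cells and 4.89, 5.69, 5.58 and 5.39 in GFP- cells. Its fractions did not overlap in either arm, but the share of all genes without such overlap was not counted. Cnp was lower in GFP+ cells, at -1.26 ± 0.22 for odor and -1.02 ± 0.22 for vehicle pools (SE, adjusted p = 0.00169 and 0.00689), calls that both other scalings kept. The vehicle call ended without moderated variances, where 0 of the 15 genes were called in vehicle pools. Cnp was dim as well, at 3.79 to 5.83 over the 16 arrays, mostly below the median over all background classes (5.63 to 6.05). Lgi4, a secreted protein that Schwann cells need to sort axons, went the other way, with 0.62 ± 0.16 over 8 pools (adjusted p = 0.0106). It did not pass in either arm alone with the deposited scale (adjusted p = 0.0998 and 0.0538). The neural crest factor Foxd3 (0.25 ± 0.10, adjusted p = 0.0702), the glial cadherin Cdh19 (0.15 ± 0.13), the neurotrophin receptor Ngfr (0.07 ± 0.14), the myelin protein Mbp (0.14 ± 0.10) and the intermediate filament Gfap (0.16 ± 0.15) gave no call. Cdh19 lay at 2.59 to 4.12 and Gfap at 4.21 to 5.15 over the 16 arrays, below the median over all background classes. After median centring 11 of the 15 were higher and 1 lower over 8 pools, and after quantile normalization 3 and 1. Of all 19505 genes, 14219 were higher and 1947 lower after median centring, and 4831 and 2608 after quantile normalization.

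Neuregulins and their receptors form the pathway in which ErbB3, lacking an active kinase of its own, works as a pair with ErbB2. Nrg1, the ligand that axons present to glia, was bright in all samples, at 9.41 to 11.26, and differed by 0.32 ± 0.15 over 8 pools (SE, adjusted p = 0.115). Of the 7 ligands and receptors other than Erbb3, 1 was higher and 2 lower over 8 pools, where 18.3% of all genes were higher and 13.9% lower. A fit without moderated variances called 1 of the 7. Erbb2 differed by -0.65 ± 0.19 (adjusted p = 0.0262), close to the -0.80 of Erbb3, but passed in neither arm alone (-0.57 ± 0.28 and -0.72 ± 0.28). Egfr differed by -0.45 ± 0.10 (adjusted p = 0.00476) and Erbb4, found on many neurons, by 0.42 ± 0.14 (adjusted p = 0.0403). All 3 receptors lay between 2.80 and 4.92 on every array, in the range of the dim genes. With median centring Erbb2 (-0.30, adjusted p = 0.179) and Egfr (-0.11, adjusted p = 0.335) lost their calls and 4 of the 7 were higher, among them Nrg1. On that scale 14219 of all 19505 genes were called higher over 8 pools. Quantile normalization kept the split of 1 higher and 2 lower.

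The families of the other members held few calls. Among the 7 other genes of the neuropeptide Y family and its receptors limma called 0 over 8 pools; 0 were under 0.05 before adjustment, and a fit with unmoderated variances called 0 too. It also called 0 of 8 secreted Wnt antagonists, which share Frzb's role, with 1 at an unadjusted p under 0.05 and 1 called without moderated variances. Npy1r, at 0.43 ± 0.23 (SE, adjusted p = 0.176), and Dkk2, at 0.21 ± 0.08 (adjusted p = 0.0819), were 2 that missed the threshold. Among all listed genes, the within-pool differences of Npy4r, Sfrp4 and the melanocyte gene Tyrp1 did not overlap between the arms. The share of all genes that did so was not counted, so nothing is read from this. The odor minus vehicle enrichments of Npy4r and Sfrp4, 0.49 ± 0.19 and 0.44 ± 0.19, did not pass (adjusted p = 1 each). Of 9 other fatty acid-binding proteins 1 was higher (Fabp9, 0.35 ± 0.12) and 2 were lower over 8 pools, Fabp4 of fat and endothelial cells by -0.78 ± 0.23 and Fabp5 of epithelia by -0.82 ± 0.19. Without moderated variances 0 of the 9 were called. Among all genes 13.9% were lower and 18.3% higher over 8 pools. Median centring called 7 of 7, 7 of 8 and 7 of 9 genes higher in these 3 families, and left 1 of the 9 fatty acid-binding proteins lower. Quantile normalization called 0, 2 and 0 higher, with Fabp4 and Fabp5 still lower. Of all 19505 genes, the 2 scalings called 14219 and 4831 higher over 8 pools.

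Sox10 and Erbb3 are not private to ensheathing glia. Markers of several other cell types were lower in GFP+ cells, while the basal, melanocyte and mature neuron lists held no lower call. The part of any of these cells in the Sox10 and Erbb3 differences was not tested. All 5 markers of microvillar and ionocyte-like cells were lower in GFP+ cells in both arms, with Foxi1, a master factor of ionocytes, at -4.39 ± 0.37 and -4.21 ± 0.37 and the chloride channel gene Cftr at -3.29 ± 0.49 and -3.65 ± 0.49 (SE, odor and vehicle pools). The log2 of their summed levels ran from 13.57 to 15.47 in odor GFP-, 13.48 to 16.62 in vehicle GFP-, 11.36 to 11.75 in odor GFP+ and 11.11 to 11.78 in vehicle GFP+ samples. Of the Bowman's gland markers 2 of 4 were lower in each arm, with Sox9 at -4.29 ± 0.18 and -3.62 ± 0.18, and summed levels of 9.66 to 10.48 in GFP- against 7.22 to 7.91 in GFP+ samples. Sustentacular markers were lower in 3 of 4 in each arm, with summed levels of 16.11 to 16.74 in GFP- against 14.18 to 15.02 in GFP+ samples. Of the list for oligodendrocytes, another Sox10 lineage, Olig1 and Olig2 were lower in both arms. Both were bright in GFP+ samples too, Olig1 lying at 9.25 to 11.17 and Olig2 at 12.87 to 14.26 over the 16 arrays. Which cells made them was not tested. The myelin gene Mog was higher over 8 pools, at 0.31 ± 0.10 (adjusted p = 0.0443; 0.098 with quantile normalization), and Mag was not called. Mog and Mag lay at 2.79 to 3.99 on all arrays, above the median of the classes with 10 to 16 G or C bases and below that of all classes. Of 5 melanocyte genes, from another such lineage, 1 was higher over 8 pools (Pmel, 0.39 ± 0.11) and none lower. Of 5 measured stromal genes the matrix gene Dcn was lower in both arms (-0.89 ± 0.18 and -0.73 ± 0.18), and of 4 endothelial genes 2 were lower over 8 pools. Among all genes 10.6% were lower in odor and 10.8% in vehicle pools, and over 8 pools 13.9% were lower and 18.3% higher. Without moderated variances, 0 stromal genes and 1 Bowman's gland gene were called in vehicle pools. Over 8 pools that fit called 1 endothelial gene and 2 of the oligodendrocyte list. Median centring left the 5 microvillar markers and Sox9 lower in both arms and ended the calls of Olig1 and Olig2 in each arm and of Dcn in vehicle pools. Quantile normalization ended the calls of Dcn in both arms and called 1 of 4 Bowman's gland markers lower in each. It left all 5 microvillar markers and 2 genes of the oligodendrocyte list lower in each arm. Of the lists for 3 basal cell genes and 4 genes of mature sensory neurons limma called 0 each over 8 pools, with 0 and 3 at an unadjusted p under 0.05 and 0 and 2 called without moderated variances.

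From pool to pool, Sox10 ranked with some of the 5 microvillar markers and not with others. In GFP- cells of replicates 1 to 4, Foxi1 lay at 11.95, 10.55, 11.54 and 9.79 in odor pools and at 12.87, 10.15, 10.96 and 9.77 in vehicle pools. Coch lay at 15.24, 13.45, 14.16 and 13.27 in odor pools and at 16.42, 13.60, 14.25 and 13.16 in vehicle pools. Replicate 1 of each arm was highest for Sox10, Foxi1, Coch, Cftr and Ascl3. Replicate 3 of the odor pools came second for Sox10, Foxi1, Coch and Cftr and lay behind replicate 2 for Ascl3. In vehicle pools replicate 4 came second for Sox10 and Ascl3 and replicate 3 for the other 3. Trpm5, a channel of chemosensory microvillar cells, lay at 8.73, 9.21, 8.50 and 9.26 in odor pools and at 8.57, 8.44, 8.53 and 9.24 in vehicle pools, so that replicate 4 was its highest in both arms and odor replicate 3 its lowest there. The part of these cells in the Sox10 difference was not tested.

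**Figure D4:**
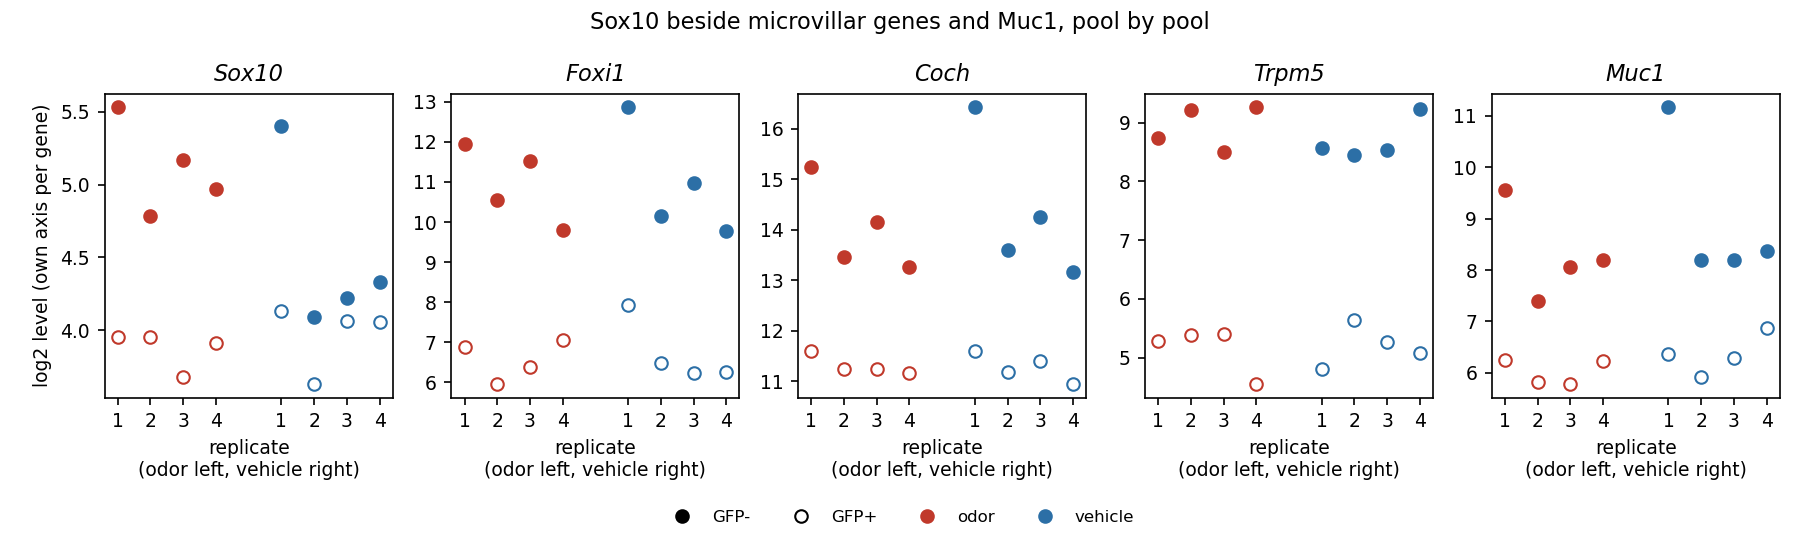
Log2 level of Sox10, of Foxi1, Coch and Trpm5 from the microvillar list, and of Muc1, the gene whose deviations correlated best with those of Sox10, in the GFP- (filled) and GFP+ (open) sample of each pool. Each gene has its own y axis, and the GFP- sample of replicate 1 was the highest of its arm for Sox10 (5.53 and 5.40), Foxi1, Coch and Muc1 but not for Trpm5.

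Genes whose levels deviated most like those of each member were ranked by Pearson's r over the 16 arrays, after the mean of each of the 4 groups was subtracted, among the 9753 genes at or above the median brightness. For Sox10 these were Muc1, an epithelial mucin (r = 0.94), Moxd1 (0.93) and Gm5796 (0.91). Muc1 lay in GFP- cells at 9.56, 7.39, 8.07 and 8.20 in odor replicates and at 11.16, 8.19, 8.19 and 8.36 in vehicle replicates, high in replicate 1 of each arm as Sox10 was. For Erbb3 they were Fancf (0.83), Rnh1 (0.74) and Ercc1 (0.73), for Fabp7 Cln3 (0.82), Cyp2g1, a detoxifying enzyme of sustentacular cells (0.81), and Cebpg (0.77). S100b was followed by Flcn (0.82), Ufc1 (0.80) and Olfr99 (0.79), Npy by Tuba1c (0.80), Olfr459 (0.76) and Cdh1 (0.73), and Frzb by Exoc7 and Dcdc2b (both 0.89) and Ccdc88c (0.88). No gene was named for more than 1 member. These are descriptions over arrays that share pools, each r being among the highest of 9753.

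Whether the 6 genes rose and fell together was asked over the 8 GFP- samples. Of the 15 pairs, 10 had a positive r, from -0.27 to 0.71 with a median of 0.29, and 0 passed after adjustment over the 15 pairs (exact permutation test, two-sided, smallest adjusted p = 0.5095). No pair had an unadjusted p under 0.05 for r. Sox10 and Npy gave the highest r, 0.71 (exact permutation p = 0.0509, Spearman's rho = 0.67, p = 0.0831), and r was 0.44 without the 2 samples farthest from the median of Sox10. S100b and Fabp7 followed with r = 0.68 (exact permutation p = 0.0694), rho = 0.76 (p = 0.0368, adjusted p = 0.5513) and r = 0.54 without the 2 farthest samples. Sox10 and Erbb3, the pair that fell in GFP+ cells, gave r of -0.0008. Within arms, that is after each arm's mean was subtracted, 3 pairs had an unadjusted p under 0.05 and 0 passed.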

How the data were processed

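Total RNA of 16 FACS samples was hybridised to Clariom S arrays. The authors deposited 1 log2 value per probe set and array, made with Affymetrix Expression Console per the submitters' processing notes, with the version, normalization and background correction not given in the sources used here. No label states the scale, and log2 was inferred from the values, which ran from 1.67 to 19.35. Of 28846 probe sets, 19572 had 1 gene symbol, 9274 none and 0 several, and all 19572 matched a RefSeq gene by identifier. For 55 genes with several probe sets the brightest was kept, leaving 19505 genes.

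The unit of the enrichment tests was the GFP+ minus GFP- log2 difference within a pool, as both samples came from the same 3 mice. Odor was compared with vehicle on these differences and within each fraction. Fits used limma 3.58.1 in R 4.3.3 (lmFit, eBayes), with both arms sharing a variance, two-sided p-values, Benjamini-Hochberg adjustment over 19505 genes and a threshold of 0.05; the scripts were tested on simulated data. The spread behind each p-value is that between pools of 3 mice. In the titles both of the last vehicle pools are called replicate 3, and here the later one is replicate 4. Same-numbered odor and vehicle pools deviated together over all genes. Correlations were 0.114 to 0.242 in GFP+ samples, 0.0664 to 0.332 in GFP- samples and 0.0974 to 0.305 in within-pool differences. The closest match in the other arm had the same number in 8 of 8, 7 of 8 and 7 of 8 cases. The labels do not say what the numbers share across arms, so the main values come from fits without a replicate block. With the block as an alternative, 0 of the 6 genes were called between arms in GFP+ samples, and Sox10 passed in vehicle pools.

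The genes named are the 6 members, the lists of related genes and of cell type markers, and the 3 genes most like each member; Olfr76 was named after its values were seen. Members and lists were chosen with earlier results of these data known. The stromal gene Pdgfra was not analysed here. Alternatives were median centring, quantile normalization, leaving out dim genes, other variance models, the mean of probe sets, a replicate block, no pool term, and each pool left out in turn.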

Additional observations from a re-analysis of the deposited data

Results flagged for a closer look

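Of 36 sets of 4 values examined for the 6 genes, 3 held a sample far from the other 3, by the gap to its neighbour as a share of the whole range against Dixon's 95% limit for 4 values. Chance flags about 1 in 20 such sets. Sox10 was low in the GFP+ sample of odor replicate 3 (3.68, share 0.855) and in the GFP+ sample of vehicle replicate 2 (3.63, share 0.854). Frzb was high in the GFP- sample of odor replicate 3 (4.95, share 0.861).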

How the results depend on the processing

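Of 534 recomputed values for single genes, 492 kept their sign and their side of the threshold, 29 changed sign, 11 gained a call and 2 lost one. Sox10 kept its call in odor pools and over 8 pools under all alternatives that tested it; leaving out dim genes, which tests only Fabp7, left 0 calls in place of 1 and of 2. Of the 6 genes, median centring called 3 in odor pools, 1 in vehicle pools (Npy, 0.62) and 4 over 8 pools, quantile normalization 4 over 8 pools, and unmoderated variances 1 over 8 pools. Of all 19505 genes, median centring called 12346, 12265 and 16166 in these comparisons. Quantile normalization called 7439 of all genes over 8 pools, and unmoderated variances 5342. In vehicle pools, with 0 calls as reported, the replicate block (Sox10) and the fit with no pool term (Erbb3, adjusted p = 0.0452) gave 1 each, and leaving out 1 pool gave 0 to 1, the 1 being Erbb3 without odor replicate 4 (adjusted p = 0.0209). The replicate block changed no other call among the 6 genes. The number of gene-array values above background, 16 of 96 against the median of all classes, was 96 against the classes with 10 to 16 G or C bases and 6 against the highest class, references chosen after seeing the data. Median centring turned the sign of Npy (0.25) and Frzb (0.17) in odor pools and of Frzb over 8 pools (0.28). With 1 pool left out, sign changes touched only values that had not passed. The enrichment difference ran from -0.19 to 0.50 for Erbb3 and from -0.48 to 0.082 for Frzb. Within odor pools Frzb ran from -0.43 to 0.13 and Npy from -0.24 to 0.17, and over 8 pools Frzb from -0.19 to 0.093. Within vehicle pools the ranges were -0.25 to 0.51 for Fabp7, -0.16 to 0.25 for Frzb and -0.10 to 0.27 for S100b. Odor against vehicle in GFP+ cells gave -0.31 to 0.13 for Erbb3, -0.14 to 0.35 for Fabp7 and -0.11 to 0.15 for Frzb. In GFP- cells it gave -0.55 to 0.062 for Fabp7, -0.058 to 0.38 for Frzb, -0.008 to 0.24 for Npy and -0.048 to 0.083 for S100b. The cause of these changes was not tested. Signal near background limits these genes, Fabp7 the least. Fabp7 still exceeded the median over all classes by only 0.36 in the GFP- sample of vehicle replicate 3.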
